A study of Mus musculus with 96 samples.

Results

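The genes described here are the 32 members of a list of glycolysis, lactate and pyruvate genes. They were chosen by name, with earlier results of these data known, among 50944 genes listed in every file of the series. The list holds 3 glucose transporter genes (Slc2a1, Slc2a3, Slc2a4), 11 genes of upper glycolysis (Hk1, Hk2, Hk3, Gpi1, Pfkl, Pfkm, Pfkp, Pfkfb3, Aldoa, Aldoc, Tpi1) and 7 of lower glycolysis (Gapdh, Pgk1, Pgam1, Pgam2, Eno1, Eno3, Pkm). It also holds 4 lactate genes (Ldha, Ldhb, Slc16a1, Slc16a3) and 7 pyruvate genes (Pdk1, Pdk2, Pdk4, Pdha1, Pdhb, Mpc1, Mpc2). Total RNA was sequenced from cardiomyocytes (CMs), endothelial cells (ECs), hematopoietic cells (HCs) and fibroblasts (FBs) of hearts of male C57Bl/6J mice aged 12 to 14 weeks, taken without infarction (Day 0) or on Day 1, 3, 7, 14 and 28 after the left anterior descending artery was tied off for good. Each of the 24 groups had 4 libraries, and RNA of 3 mice was pooled for a library. CMs were collected by centrifugation of the collagenase digest, ECs with beads against CD144, HCs with beads against CD45, and FBs by letting cells attach to a plate, so each isolate can hold other cells. Every group shared the strain, the sex and the digestion.

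Glycolysis splits glucose into pyruvate, which is either reduced to lactate and exported or taken into mitochondria and oxidised. Most steps have several isozymes encoded by separate genes. Heart muscle uses the insulin-responsive glucose transporter encoded by Slc2a4, the muscle forms encoded by Pfkm, Pgam2 and Eno3, and Ldhb, the lactate dehydrogenase subunit of oxidative tissue. Proliferating, hypoxic or activated immune cells carry more Slc2a1, Pgam1, Eno1, Pkm, Ldha and the lactate exporter gene Slc16a3, many of which hypoxia-inducible factors are known to act on through the core letters ACGTG.

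Promoters are shown for 4 members that were higher in 1 or more cell types after infarction and for Pdk4, which was lower in HCs; these 5 were picked after their values were seen. They come from RefSeq on GRCm38.p6, run 5′ to 3′ on the gene's strand and stop at annotated exons. Capitals mark ACGTG on either strand, with overlapping matches joined.
Ldha (chr7:46845554-46845803, plus strand): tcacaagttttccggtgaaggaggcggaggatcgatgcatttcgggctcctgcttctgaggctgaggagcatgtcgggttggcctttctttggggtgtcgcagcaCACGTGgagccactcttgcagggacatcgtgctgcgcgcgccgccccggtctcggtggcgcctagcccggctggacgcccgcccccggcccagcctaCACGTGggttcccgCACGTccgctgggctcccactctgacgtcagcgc
Pgk1 (chrX:106186850-106187099, plus strand): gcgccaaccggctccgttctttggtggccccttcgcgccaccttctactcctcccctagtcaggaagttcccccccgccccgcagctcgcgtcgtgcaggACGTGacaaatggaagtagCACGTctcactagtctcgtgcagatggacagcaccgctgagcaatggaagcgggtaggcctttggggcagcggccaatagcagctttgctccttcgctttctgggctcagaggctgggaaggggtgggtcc
Pgam1 (chr19:41911621-41911870, plus strand): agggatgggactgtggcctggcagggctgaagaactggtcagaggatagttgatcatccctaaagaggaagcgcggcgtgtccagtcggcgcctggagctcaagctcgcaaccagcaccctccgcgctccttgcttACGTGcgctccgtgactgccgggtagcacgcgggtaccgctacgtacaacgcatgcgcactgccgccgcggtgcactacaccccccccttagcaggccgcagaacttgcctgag
Slc16a3 (chr11:120948817-120949052, plus strand): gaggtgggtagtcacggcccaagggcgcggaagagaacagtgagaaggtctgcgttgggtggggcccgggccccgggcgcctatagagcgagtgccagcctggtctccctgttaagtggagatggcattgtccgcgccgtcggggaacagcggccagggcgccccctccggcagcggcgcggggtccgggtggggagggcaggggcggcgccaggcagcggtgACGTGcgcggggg
Pdk4 (chr6:5496310-5496528, minus strand): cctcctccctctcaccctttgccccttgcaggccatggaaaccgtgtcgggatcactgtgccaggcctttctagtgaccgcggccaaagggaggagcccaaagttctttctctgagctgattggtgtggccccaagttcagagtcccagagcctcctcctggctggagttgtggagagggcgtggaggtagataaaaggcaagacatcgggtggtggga
The Ldha window held 3 such stretches, Pgk1 held 2, Pgam1 and Slc16a3 1 each in the stretch printed, and Pdk4 held 0. Where a member had several promoters, one with a match was printed if there was any, and a second Ldha promoter (chr7:46846832-46847081) held 0. In the 250 bases before the start, 14 of 30 members with a promoter in the table had a match (Slc2a1, Hk2, Hk3, Pfkm, Pfkfb3, Aldoa, Pgk1, Pgam1, Pkm, Ldha, Slc16a1, Slc16a3, Pdk2 and Pdhb), against 18.5% of 27025 genes. Of all 32851 promoters in the table, 16.6% had one. Eno1, Pfkl and Gapdh, called higher in ECs, FBs and HCs at Day 3, had no match. Pfkm, Slc16a1, Pdk2 and Pdhb, called lower in ECs and HCs that day, had a match. A match describes letters and not a bound site. The Ldha and Slc16a3 windows lie inside the span of the longer annotated gene (GENCODE M21, Ldha chr7:46841475-46855627 and Slc16a3 chr11:120948480-120960868).

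Libraries held 13503024 to 55758471 estimated reads in CMs, 12445124 to 33868990 in ECs, 2664338 to 36545715 in FBs and 16214419 to 40395291 in HCs. Genes of rRNA took 53.4% to 68.2% of reads in CMs and at most 35.6% in the other isolates. In an earlier pass over these data, 8 libraries stood apart by a shared set of transcripts. In ECs they were replicates 1 and 2 of Day 0 and replicate 3 of Day 28, in FBs replicates 2 and 3 of Day 3 and replicate 4 of Day 28, and in HCs replicates 2 and 4 of Day 28. The 4 CM marker genes (Tnnt2, Tnni3, Nppb, Actc1) summed to 12.2 and 18.6 CPM (reads of a gene scaled to the library total) in FB Day 3 replicates 1 and 4 but to 521 and 365 in replicates 2 and 3, so many FB Day 3 results are given with and without those 2. Levels below are TMM-scaled CPM, and ± gives the SE of a log2 difference or, for a level, the SD of its 4 libraries. A gene is called at an adjusted p under 0.05 by edgeR's quasi-likelihood test over all genes. The rule for naming members with the largest changes required no overlap with Day 0. Where no overlap is stated, it describes the libraries and is not separate evidence. In bulk samples of this kind, fewer cells of a type and less RNA per cell cannot be told apart.

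Uninjured cell types differed first in which isozyme they carried. CMs carried the muscle isozymes and the mitochondrial pyruvate carrier, FBs and HCs the lactate exporter gene Slc16a3, and HCs Hk3, the hexokinase gene of myeloid cells. Levels between genes are given here as TPM (reads per length, scaled to a fixed total) rescaled over nuclear protein-coding genes. In CMs the highest members were Mpc1 (3830 ± 633), Mpc2 (3130 ± 651) and Ldhb (1990 ± 240). Slc2a1, the widely expressed glucose transporter gene, stood at 4.02 ± 0.0726 in CMs and Slc2a4 at 122 ± 40.4. In FBs the order was turned round, with Slc2a1 at 30.0 ± 3.64 and Slc2a4 at 3.91 ± 1.02. ECs and HCs held both, with Slc2a4 at 37.2 ± 6.10 and 44.2 ± 8.13 and Slc2a1 at 8.96 ± 1.47 and 13.9 ± 3.32. In those libraries 8 abundant CM transcripts summed to 5250 to 7420 CPM in ECs and 5800 to 9590 in HCs, and Slc2a4 stood at 0.545 and 0.529 percent of them against 0.549 in CMs; their part in its level was not tested. Slc16a3 ran from 0.192 ± 0.194 in CMs (at most 5 reads in a Day 0 library) through 3.82 ± 0.988 in ECs and 14.6 ± 1.71 in HCs to 27.3 ± 1.95 in FBs, and no neighbours in that order overlapped.

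Each uninjured type was tested against the mean of the other 3, with cell type and library batch coinciding, so the pair cannot be told apart. The study's methods say that isolates of a time came from the same animals, and the libraries were fitted as independent. In CMs 24 of 31 members tested were higher and 5 lower, where 76.5% of all genes were called, and the median log2 difference of members was 3.2 against -0.46 over all genes. Some of these calls rest on the scale, and how many do was not counted. On TPM over nuclear protein-coding genes Hk1, called higher, was lowest in CMs (24.3 against 75.2 in ECs, 52.1 in FBs and 47.9 in HCs). So was Pgam1 (63.2 against 69.0, 100 and 69.5). Eno3, Pgam2 and Mpc1 were highest in CMs on TPM too. Eno3, the muscle enolase gene, was higher by 5.81 ± 0.14 on the log2 scale (adjusted p = 2.31e-16), Pgam2 by 5.63 ± 0.32 (3.69e-10) and Mpc1 by 4.75 ± 0.13 (1.23e-15). Those lower in CMs were Slc16a3, Pfkfb3, Hk3, Slc2a3 and Pfkp. In FBs 6 members were higher and 21 lower (66.0% of all genes called), the 6 being Slc16a3 (2.97 ± 0.20, adjusted p = 3.95e-10), Hk2 (1.40 ± 0.10, 1.06e-09), the platelet-type phosphofructokinase gene Pfkp (1.36 ± 0.07, 4.81e-12), Slc2a1, Pfkfb3 and Pgam1. In HCs 6 were higher and 15 lower, and the 67.7% of members called was near the 63.3% of all genes. Higher were Hk3 by 7.12 ± 0.20 (adjusted p = 1.90e-15) and Pfkfb3, which makes the activator of phosphofructokinase, by 1.90 ± 0.11 (3.93e-11). Slc16a3 was higher by 1.81 ± 0.22 (1.06e-06), then Slc2a3, Eno1 and Eno3. Eno3 there stood at 1.25 ± 0.0737 percent of the CM transcripts against 2.23 ± 0.47 in CMs. In ECs none was higher by edgeR and 22 were lower (59.7% of all genes called), and without EC Day 0 replicates 1 and 2 the counts were 2 and 21. By the naming rule the ECs' least negative called members were Pdk1 (-0.31 ± 0.10, adjusted p = 0.0154), Pdk4 (-0.49 ± 0.17, 0.0193) and Pfkp (-0.49 ± 0.08, 2.67e-05), and without EC Day 0 replicate 3 the first and the second fell short of the threshold.

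**Figure D1:**
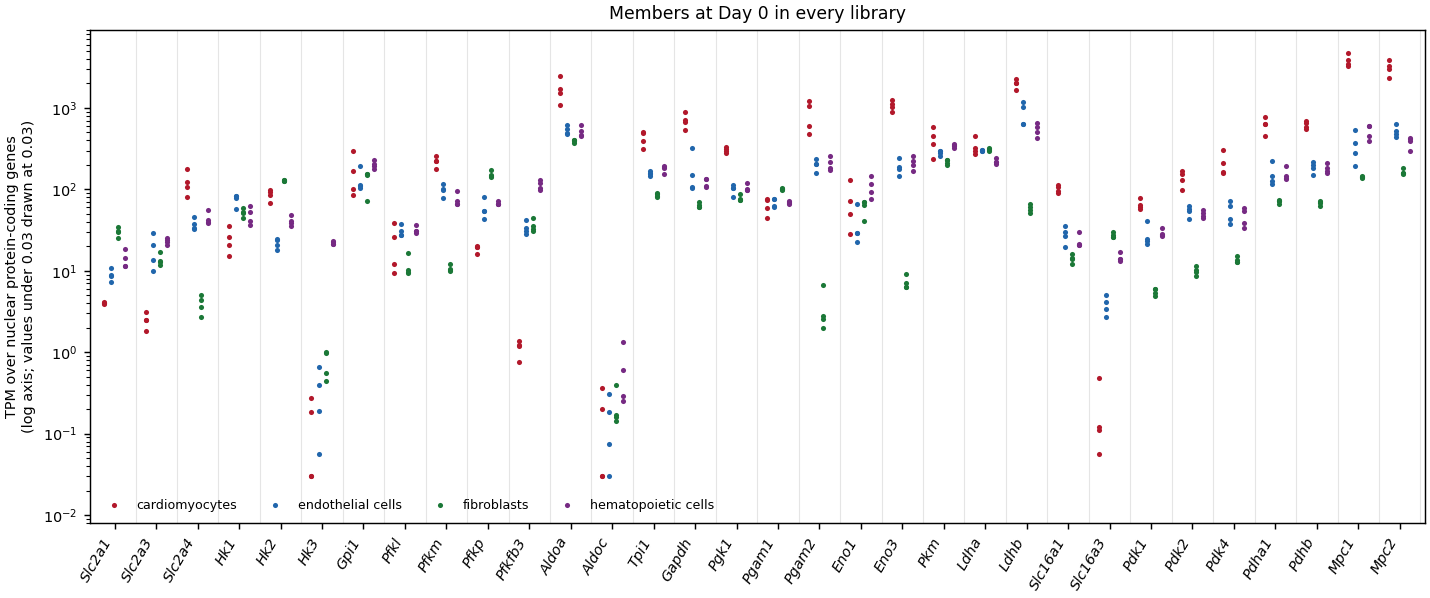
Level of each member (horizontal axis) in every Day 0 library as TPM over nuclear protein-coding genes (vertical log axis, values under 0.03 drawn at 0.03), colored by cell type. Hk3 stands at 22.0 ± 0.817 in HCs and at no more than 1.01 in any library of the other types, and Pgam2 and Eno3 are highest in CMs and lowest in FBs.

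After infarction, HCs had the most members called of the 4 isolates at Day 1 and at Day 3. Of 32 members 18 were higher and 11 lower at Day 1, where 41.9% of all genes were called, and the median of members was 0.81 against -0.10 over all genes. At Day 3 the counts were 17 and 12 (46.4% of all genes called, medians 0.45 and -0.02). By step at Day 3, upper glycolysis had 9 higher and 1 lower of 11, lower glycolysis 5 and 2 of 7, lactate genes 2 and 2 of 4, glucose uptake 1 and 1 of 3, and pyruvate genes 0 higher and 6 lower of 7. The splits on log2(TPM + 1) were 9 and 8 at Day 1 and 12 and 10 at Day 3, and over nuclear protein-coding genes 15 and 10, and 12 and 12. HC files hold transcripts at Day 1 and Day 7 and genes on the other days, so HC changes at Day 1 and Day 7 cross the kinds of file and those at Day 3 do not.

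Glucose transporter transcripts of the HC isolate shifted from Slc2a4 to Slc2a1. Slc2a1 stood at 12.5, 13.8, 13.5 and 16 CPM at Day 0, at 208, 139, 123 and 173 at Day 1 and at 71.4, 76.9, 79.9 and 79.7 at Day 3. No library of Day 1 or Day 3 came near the Day 0 range, and the rise was 3.52 ± 0.18 on the log2 scale at Day 1 (adjusted p = 3.28e-12) and 2.46 ± 0.17 at Day 3 (3.01e-10). Slc2a4 went the other way, from 31.5, 50.6, 41.8 and 34.9 CPM to 8.38, 10.1, 9.84 and 6.75 at Day 1 and 4.25, 5.87, 4.24 and 4.49 at Day 3. It fell by 2.18 ± 0.23 (adjusted p = 9.92e-08) and then by 3.07 ± 0.23 (1.03e-09), again with no overlap, which the naming rule required. Slc2a3 was not called in HCs on any day. Abundant CM transcripts also fell in HCs by Day 3, as given below, and their part in the fall of Slc2a4 was not tested.

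In HCs both ends of glycolysis rose together. Hk3 went from 20.6, 20.7, 20.6 and 20.0 CPM at Day 0 to 68.9, 62.3, 67.8 and 54.0 at Day 3, a rise of 1.63 ± 0.15 (adjusted p = 1.42e-08). Pgam1, the widely expressed phosphoglycerate mutase gene, stood at 41, 45.8, 50.6 and 46.0 CPM at Day 0 and at 318, 253, 276 and 399 at Day 3 (2.76 ± 0.15, adjusted p = 7.42e-12). Pkm, which encodes the enzyme that releases pyruvate, went from 177, 191, 188 and 176 CPM to 679, 635, 667 and 684 (1.87 ± 0.13, adjusted p = 2.13e-10). In each of these the lowest Day 3 library was above the highest Day 0 library. Pgk1, whose enzyme makes ATP, rose by 1.81 ± 0.13, Pfkl by 1.26 ± 0.12, Tpi1 by 1.07 ± 0.16, Gpi1 by 0.69 ± 0.08 and Aldoa by 0.80 ± 0.14. The muscle isozymes fell, Pfkm by 2.70 ± 0.24 and Eno3 by 2.72 ± 0.23. Pgam2, the muscle mutase gene, went from 25.0, 39.5, 38.6 and 31.6 CPM to 7.55, 7.85, 7.79 and 6.71 at Day 1, where it was 2.17 ± 0.27 lower (adjusted p = 9.56e-07).

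Lactate genes of HCs split the same way. Slc16a3 stood at 9.74, 8.42, 10.5 and 8.90 CPM at Day 0, at 168, 126, 130 and 160 at Day 1 and at 79.9, 62.3, 76.4 and 99.4 at Day 3. It was the most raised member on both days, by 3.96 ± 0.23 (adjusted p = 2.03e-11) and 3.085 ± 0.22 (4.83e-10). Ldha rose by 1.26 ± 0.13 at Day 3 (adjusted p = 3.53e-08), from 103, 122, 119 and 109 CPM to 314, 256, 261 and 258. Ldhb fell by 2.85 ± 0.27 (1.47e-08), from 109, 162, 144 and 121 CPM to 17.2, 14.0, 14.8 and 28.1. Abundant CM transcripts fell in HCs as well, as given below, and their part in the fall of Ldhb was not tested. Neutrophil markers moved on the same days, their sum running from 178 to 318 CPM at Day 0, from 2190 to 3780 at Day 1 and from 600 to 1140 at Day 3, and EC markers in HCs went from 408 to 624 CPM down to 99.5 to 108 at Day 3; their part in these results was not tested.

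Pyruvate genes of HCs fell. Pdk4, the kinase gene that fasting and fatty acids induce and whose product switches off pyruvate dehydrogenase, went from 90.9, 114, 88.8 and 73.2 CPM to 14.8, 8.63, 8.11 and 9.57 at Day 3, 3.16 ± 0.49 lower on the log2 scale (adjusted p = 1.67e-05). The pyruvate dehydrogenase subunit genes fell less, Pdha1 by 1.31 ± 0.14 (from 188, 284, 249 and 227 CPM to 103, 97.1, 87.6 and 94.5) and Pdhb by 1.08 ± 0.11 (from 93.9, 121, 117 and 101 to 50.4, 54.9, 51.3 and 48.0). No library overlapped between the days for any of these genes. As a percent of the abundant CM transcripts, Pdk4 stayed about level at Day 3 while Pdha1 and Pdhb did not, as given below. The part of CM transcripts in these falls was not tested.

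**Figure D2:**
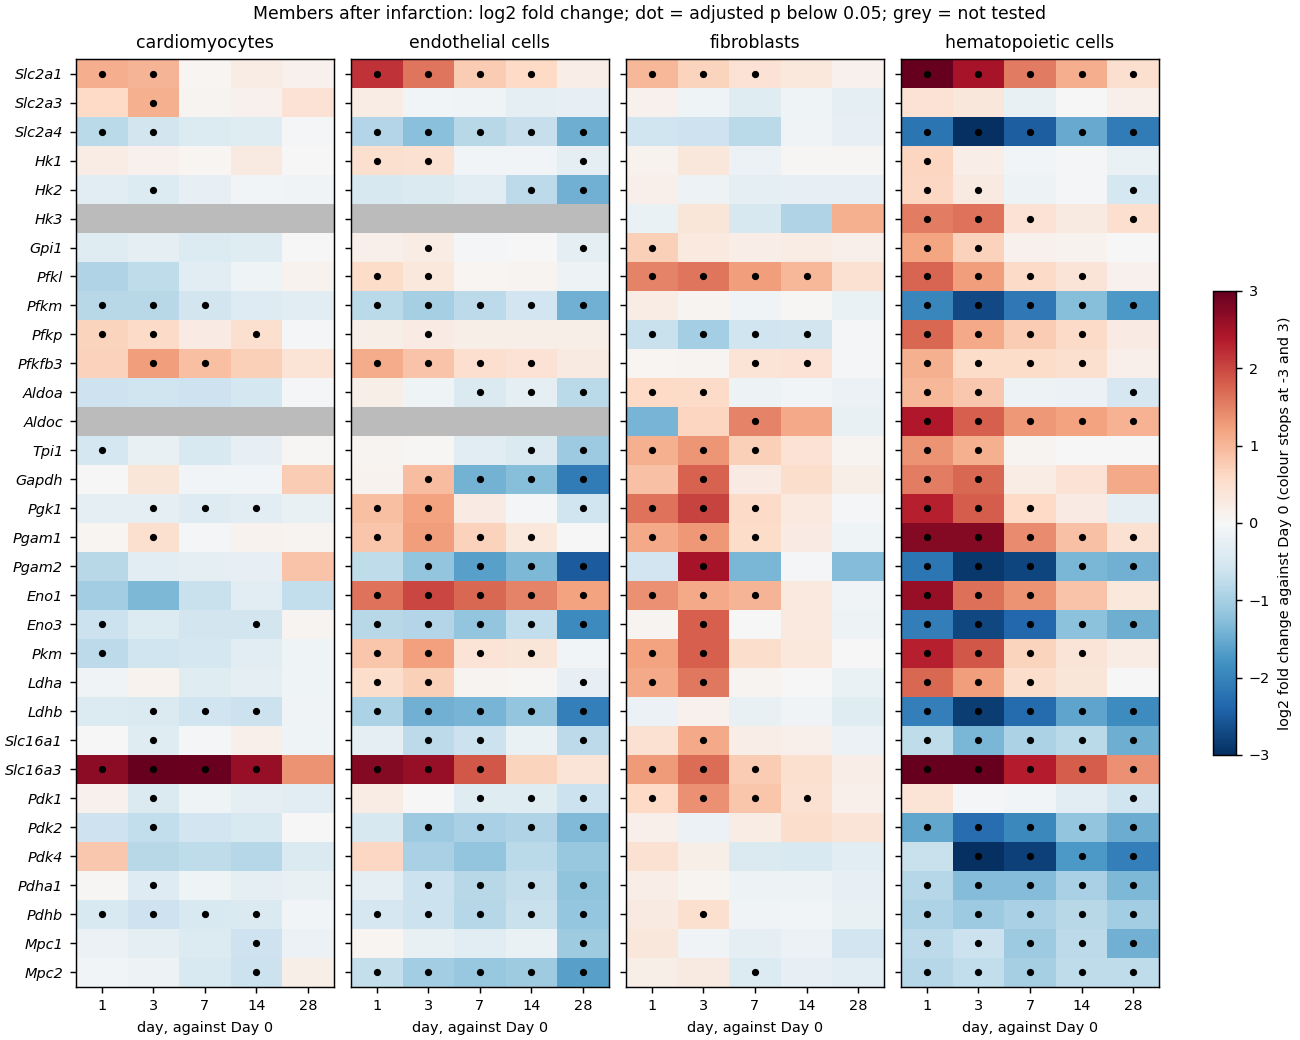
Log2 fold change of each member (rows) against Day 0 on each day (columns) in the 4 cell types (panels), with a dot where the adjusted p was below 0.05 and grey where a gene was not tested. Red rows for Slc2a1, Pgk1, Pgam1, Eno1, Pkm, Ldha and Slc16a3 line up at Day 1 and Day 3 in ECs, FBs and HCs, and blue rows for Slc2a4, Pfkm, Pgam2, Eno3, Ldhb and Pdk2 in ECs and HCs.

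ECs also had members called in both directions. At Day 1, 10 members were higher and 6 lower of 30 tested (19.0% of all genes called; 9 and 0 without the libraries that stood apart), and at Day 3, 13 and 10 (45.5% of all genes called, medians -0.05 for members and -0.03 for all genes; 11 and 10 without those libraries). The splits on log2(TPM + 1) were 8 and 0 at Day 1 and 8 and 5 at Day 3, and on TPM rescaled over nuclear protein-coding genes they were 9 and 7, and 10 and 9. Lower glycolysis had 5 higher and 2 lower of 7 at Day 3, upper glycolysis 5 and 1 of 9, and pyruvate genes 0 and 4 of 7.

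Slc2a1 in ECs stood at 10.1, 8.71, 7.15 and 8.78 CPM at Day 0, at 53.7, 31.8, 29.3 and 41.4 at Day 1 and at 31.4, 24.9, 23.9 and 26.0 at Day 3. The Day 1 rise was 2.17 ± 0.17 (adjusted p = 3.47e-08) and the Day 3 rise 1.61 ± 0.17 (1.27e-07), with no overlap. Slc2a4 went from 34.7, 40.4, 27.9 and 32.3 CPM to 16.1, 13.6, 13.1 and 13.8 at Day 3, and fell by 1.26 ± 0.20 (adjusted p = 2.92e-05). At Day 1 it was 0.87 ± 0.20 lower (0.0043), but -0.70 and not called without the libraries that stood apart. Pgam1 went from 35.3, 33.5, 36.0 and 36.3 CPM to 96.9, 77.5, 73.5 and 86.4 (1.24 ± 0.10, adjusted p = 5.69e-09). Every Day 3 library was above the highest Day 0 library.

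Pkm in ECs went from 103, 117, 112 and 119 CPM to 307, 244, 262 and 241 at Day 3 (1.23 ± 0.12, adjusted p = 5.08e-08), and Pgk1 from 70.2, 72.9, 57.2 and 69.8 to 189, 142, 133 and 158 (1.20 ± 0.12, 1.06e-07). Eno1, the widely expressed enolase gene, varied more between libraries, at 8.25, 9.23, 11.3 and 19.2 CPM at Day 0, 27.9, 33.7, 27.0 and 60.8 on Day 1 and 73.7, 24.9, 56.1 and 39.7 on Day 3 (2.01 ± 0.31 at Day 3, adjusted p = 2.57e-05). Its Day 1 change of 1.635 ± 0.31 (0.00102) was 1.29 and not called without the libraries that stood apart. Of the reads of Eno1 and its 3 near-identical copies, a median of 54.5% in ECs went to the copies, so its level is uncertain; with the copies added the Day 3 change was 1.80.

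Lactate genes of ECs moved in the same directions as in HCs. Slc16a3 went from 3.03, 3.52, 1.54 and 1.54 CPM to 20.5, 15.1, 11.7 and 17.5 at Day 1 and 18.7, 12.3, 11.7 and 15.8 at Day 3 (2.61 ± 0.27 at Day 3, adjusted p = 1.81e-07). Ldha rose by 0.71 ± 0.09 at Day 3 (2.87e-06), from 112, 124, 115 and 109 CPM to 213, 187, 172 and 181, but stood at -0.07 on TPM outside rRNA and mitochondrial genes. Ldhb fell by 1.44 ± 0.23 (4.38e-05), from 148, 165, 108 and 106 CPM to 53.0, 49.8, 47.1 and 44.6. At Day 1 Ldhb stood at 62.3, 86.6, 69.5 and 53.9 CPM (-0.955 ± 0.23, 0.0069; -0.66 and not called without the libraries that stood apart). Pdk2, another gene of a kinase that switches off pyruvate dehydrogenase, fell by 1.10 ± 0.19 at Day 3.

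**Figure D3:**
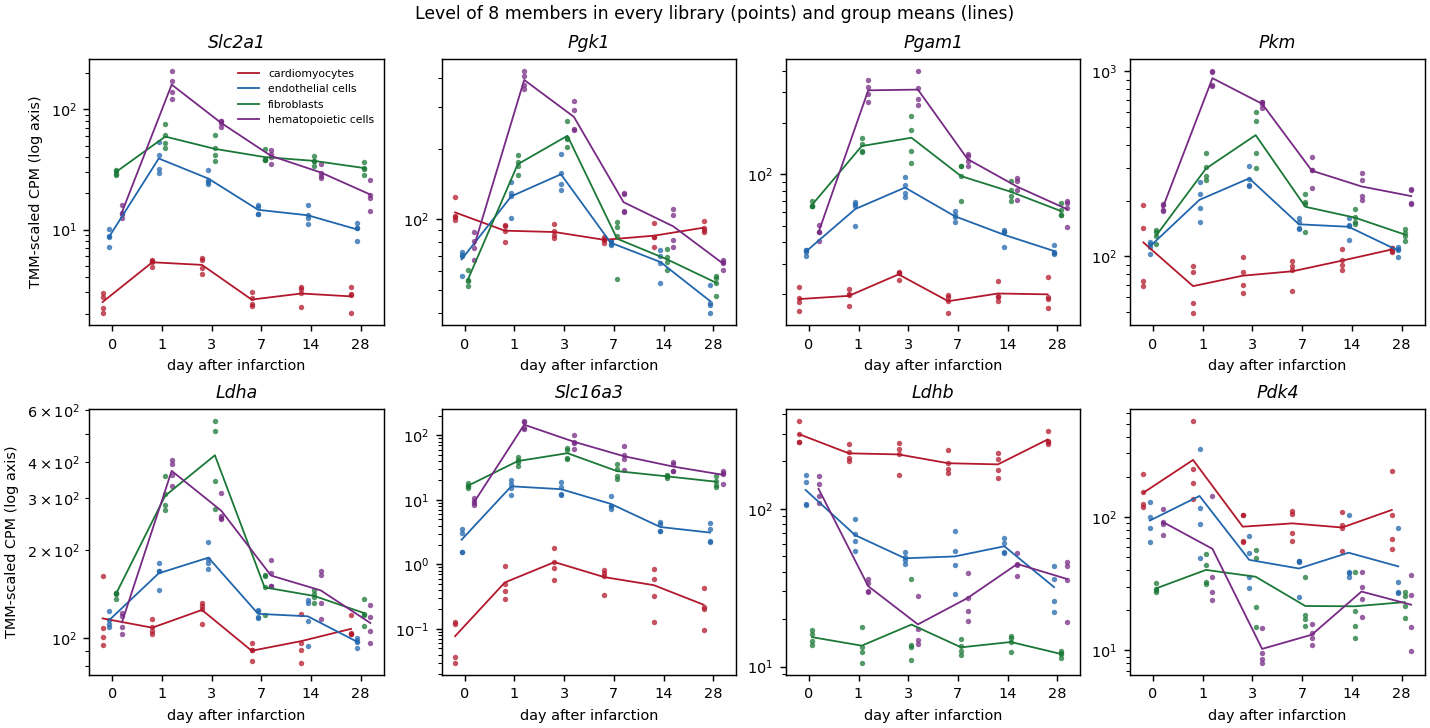
TMM-scaled CPM (vertical log axis) of 8 members on each day after infarction (horizontal axis, days evenly spaced), with a point for each library and a line through the group means, colored by cell type. Slc2a1, Pgk1, Pgam1, Pkm, Ldha and Slc16a3 peak at Day 1 or Day 3 in HCs, ECs and FBs, and Ldhb drops in HCs from 109 to 162 CPM at Day 0 to 14.0 to 28.1 at Day 3.

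FBs also had more glycolytic transcripts after infarction, and Pfkp was the member called lower at Day 1 and Day 3. Of 32 members, 12 were higher and 1 lower at Day 1 (17.9% of all genes called, medians 0.31 and -0.05), and at Day 3, 16 and 1 (49.1% of all genes called, medians 0.53 and -0.02). At Day 3 the 53.1% of members called was near that share, while all genes split into 4810 higher and 4352 lower. All 7 genes of lower glycolysis were higher at Day 3, Pgam2 and Eno3 among them on the libraries that stood apart, as given below. So were 3 of 4 lactate genes, 2 of 7 pyruvate genes, 3 of 11 upper glycolysis genes (1 was lower) and 1 of 3 glucose transporter genes. Of the lactate genes, Slc16a1 was highest in FB Day 3 replicates 2 and 3, which stood apart. Without FB Day 3 replicates 2 and 3 and the FB Day 28 library that stood apart, the splits were 17 and 2 at Day 1 and 16 and 3 at Day 3. On log2(TPM + 1) it was 0 and 16 at Day 3 (1 and 0 at Day 1), where the median of all genes moved by -0.70 and RNAs shorter than 200 bases took 63.2%, 87.3%, 85.9% and 76.9% of TPM in the Day 3 libraries. On TPM rescaled over nuclear protein-coding genes the splits were 9 and 1 at Day 1 and 13 and 1 at Day 3.

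Pgk1 in FBs stood at 54.8, 55.1, 60.6 and 51.8 CPM at Day 0, at 188, 176, 154 and 168 at Day 1 and at 203, 219, 222 and 263 at Day 3. It rose by 1.625 ± 0.14 at Day 1 (adjusted p = 6.11e-08) and by 2.03 ± 0.14 at Day 3 (6.58e-10; 2.08 without the libraries that stood apart). Pkm went from 135, 139, 128 and 116 CPM to 360, 303, 270 and 258 at Day 1 and to 299, 604, 541 and 361 at Day 3 (1.80 ± 0.18, adjusted p = 9.79e-08; 1.37 without those libraries). The highest Pkm values belonged to replicates 2 and 3, but no Day 3 library overlapped Day 0. Ldha was alike, from 143, 141, 142 and 136 CPM to 277, 553, 511 and 345 (1.58 ± 0.16, 1.43e-07; 1.16 without those libraries). Gapdh went from 58.7, 55.8, 59.8 and 59.5 CPM to 153, 124, 60.2 and 448, a change of 1.77 ± 0.39 (adjusted p = 0.000918) that was 0.93 without FB Day 3 replicate 4. It has 69 near-identical copies, which held a median of 73.1% of the joint reads in FBs, and with them added the change was 1.02.

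Slc16a3 in FBs stood at 16.2, 15.5, 16.5 and 18 CPM at Day 0 and at 43.0, 59.5, 45.0 and 63.8 at Day 3 (1.67 ± 0.17, adjusted p = 1.05e-07; 1.70 without the libraries that stood apart). Pdk1, the kinase gene that hypoxia is known to induce, went from 7.89, 9.84, 8.13 and 9.28 CPM to 20.1, 24.4, 26.3 and 22.2 (1.38 ± 0.14, 7.33e-08; 1.28 without those libraries). Phosphofructokinase genes moved in opposite directions. Pfkl, the liver-type form, went from 11.6, 9.81, 9.42 and 8.45 CPM to 35.1, 27.8, 23.8 and 23.7 at Day 1 (1.49 ± 0.18, adjusted p = 3.51e-06) and to 31.1, 28.4, 23.8 and 34.7 at Day 3 (1.61 ± 0.18). Pfkp fell from 130, 121, 145 and 134 CPM to 86.2, 83, 84.9 and 79.9 at Day 1 (-0.67 ± 0.12, 0.000413) and to 71.5, 65.0, 66.8 and 59.2 at Day 3 (-1.015 ± 0.12, 1.28e-06; -1.0 without those libraries). In every FB library of both days Pfkl was above and Pfkp below the Day 0 range. The Day 3 changes of Pfkl (-0.30), Pdk1 (-0.08), Slc16a3 (-0.31), Ldha (-0.41) and Gapdh (-0.0021) had the other sign on log2(TPM + 1).

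Pgam2 and Eno3 were also counted as higher in FBs at Day 3, but on the libraries that stood apart. Pgam2 stood at 0.24, 12.2, 5.06 and 0.414 CPM at Day 3 against 0.315, 1.11, 0.452 and 0.453 at Day 0, and without those libraries its change was -0.89. Eno3 stood at 2.92, 30.4, 12.6 and 3.24 CPM against 2.70, 3.64, 2.59 and 2.96, a change of 0.06 without them. The replicates high in both genes were those high in CM markers, and the part of CM transcripts in the result was not tested further.

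CMs changed least in the glycolytic genes themselves. At Day 1, 3 members were higher and 6 lower of 30 tested (11.4% of all genes called), and at Day 3, 6 and 10 (30.5% of all genes called, medians -0.35 for members and -0.06 for all genes). The Day 3 total of 16 was 8 without CM Day 0 replicate 4 and 10 without CM Day 3 replicate 1 or 2. On log2(TPM + 1) the splits were 2 and 0 at Day 1 and 8 and 0 at Day 3, with DESeq2 size factors 6 and 7 at Day 3, and on TPM over nuclear protein-coding genes 3 and 1 at Day 1 and 3 and 4 at Day 3.

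The transporter genes Slc2a1 and Slc2a3 rose in CMs from low levels. Slc2a1 went from 2.02, 2.75, 2.24 and 2.97 CPM to 4.80, 5.54, 4.23 and 5.76 at Day 3 (1.02 ± 0.16, adjusted p = 2.63e-05), and Slc2a3 from 4.73, 3.81, 5.61 and 4.00 to 9.68, 8.64, 11 and 8.56 (1.07 ± 0.22, 0.000757). Slc2a4 stood at 46.6, 93.0, 45.8 and 68.1 CPM at Day 0 and at 39.5, 38.7, 36.0 and 30.9 at Day 1 (-0.81 ± 0.18, adjusted p = 0.00311), where all 4 libraries were below Day 0. Pfkp went from 8.68, 11.4, 8.84 and 9.53 CPM to 15.4, 16.7, 12.9 and 16.7 at Day 1 (0.68 ± 0.13, 0.000993) and to 15.5, 16.4, 12.2 and 12.8 at Day 3 (0.565 ± 0.13, 0.002). Pfkm, the muscle form, went from 92.5, 165, 83.7 and 137 CPM to 62.8, 79.5, 58.6 and 69.2 at Day 1 (-0.82 ± 0.17, 0.00154) and 59.7, 60.1, 70.4 and 77.5 at Day 3 (-0.84 ± 0.17, 0.000458), but its Day 3 change was 0.10 on log2(TPM + 1). At Day 0 both muscle-type genes were highest in replicates 2 and 4.

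Pgam1 in CMs went from 18, 22.0, 18.9 and 15.9 CPM to 27.0, 26.5, 26.7 and 24 at Day 3 (0.48 ± 0.13, adjusted p = 0.00617), with no overlap. Slc16a3 had at most 5 reads in a Day 0 library and 0.0239 to 0.13 CPM there, against 0.292 to 0.931 CPM at Day 1 and 0.582 to 1.79 at Day 3, so its level stayed low. Pfkfb3 rose by 1.25 ± 0.24 at Day 3. Pdhb fell from 179, 185, 199 and 170 CPM to 133, 104, 124 and 116 (-0.62 ± 0.11, adjusted p = 0.00022). HC markers in the CM isolate rose on the same day, from 0.196 to 0.587 CPM at Day 0 to 5.14 to 7.21 at Day 3, and their part in the result was not tested.

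Across isolates, 8 members were called higher at Day 1 in ECs, FBs and HCs alike (Slc2a1, Pfkl, Pgk1, Pgam1, Eno1, Pkm, Ldha, Slc16a3), and 2.53% of 16625 genes tested in each of them were. At Day 3 Gapdh joined them, making 9, against 7.43% of genes. Slc2a1 and Slc16a3 were higher in all 4 isolates at Day 1, 2 members against 0.925% of 13951 genes. Slc2a1, Pgam1 and Slc16a3 were at Day 3, 3 members against 3.62% of those genes. In CMs Slc16a3 had at most 5 reads in a Day 0 library. Called lower in ECs and HCs at Day 3 were 10 members (Slc2a4, Pfkm, Pgam2, Eno3, Ldhb, Slc16a1, Pdk2, Pdha1, Pdhb, Mpc2), against 10.6% of 17121 genes.

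The Day 3 change of each isolate was then tested against the mean change of the other 3. Isolates of a day, which by the study's methods share animals, were fitted as independent here too. In HCs 11 members rose more or fell less and 10 the reverse, of 32 (25.6% of all genes called). Pgam1 rose by 1.84 ± 0.19 more in HCs than elsewhere (adjusted p = 1.01e-08), Slc2a1 by 1.45 ± 0.17 (1.11e-07) and Pfkp by 1.28 ± 0.13 (1.04e-08), and Pdk4 was 2.52 ± 0.37 to the lower side (3.39e-06). In FBs the split was 16 and 5 (28.4% of all genes called; 12 and 6 without the libraries that stood apart). Pfkp, falling in FBs and rising in HCs, differed by -1.80 ± 0.13 (5.17e-11), the monocarboxylate transporter gene Slc16a1 by 1.82 ± 0.23 (9.86e-07) and Pdk1 by 1.40 ± 0.18 (7.57e-07). FB changes of Slc16a3 (-1.62 ± 0.32, 0.00035) and Slc2a1 (-1.18 ± 0.17, 7.97e-06) were smaller than elsewhere, from the highest Day 0 levels of the 4 isolates.

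In CMs 5 members were to the higher side and 11 to the lower (18.8% of all genes called). Pgk1 differed by -1.97 ± 0.16 (adjusted p = 9.31e-10), Pgam1 by -1.31 ± 0.19 (9.55e-06) and Ldha by -1.095 ± 0.19 (9.86e-05). These 3 genes rose in the other isolates at Day 3, and in CMs Pgam1 alone of them was called higher. In ECs no member's change differed from the mean of the others by edgeR (12% of all genes called), 4 had an unadjusted p below 0.05, and 2 were called with DESeq2 size factors.

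Isozyme shares put the same shifts on one scale, as TPM of a gene over its isozymes and with no test. The part of CM transcripts in the shares of HCs and ECs was not tested either. In HCs Slc2a1 made up 17.0% ± 1.84 of the 3 glucose transporters at Day 0, 75.2% ± 1.55 at Day 1, 65.2% ± 9.38 at Day 3 and 34.1% at Day 28. Slc16a3 went from 39% ± 5.73 of the 2 lactate transporters at Day 0 to 92.3% ± 2.74 at Day 3, and by reads from 12.2% ± 2.78 to 74.2% ± 6.21. Ldha went from 29.2% ± 2.94 of lactate dehydrogenase to 85.2% ± 10.5 and was at 57.2% ± 16.8 at Day 28, and by reads it was at 46.1%, 93.6% and 76.0%. The length given for Ldhb was 490 bases in HC Day 3 replicate 4 and 451 in HC Day 28 replicate 4, against 1291 to 1303 in the other HC libraries of Day 0, 3 and 28. In ECs Ldha went from 26.6% ± 5.73 to 63.6% ± 1.55 (47.1% to 79.4% by reads) and Slc2a1 from 14.3% ± 3.93 to 44.6% ± 5.38 at Day 3. The length given for Ldhb was 804 and 844 bases in EC Day 0 replicates 1 and 2, against 1301 and 1299 in replicates 3 and 4. The Ldha share by TPM was 22.7% and 20.6% in replicates 1 and 2, and 31.4% and 31.5% in replicates 3 and 4. FBs started high in Ldha, at 84.1% ± 1.41, and reached 93.0% ± 2.56. Pfkp took 87.3% ± 1.93 of phosphofructokinase in FBs at Day 0, 69.5% ± 5.6 at Day 3 and 86.3% at Day 28, while its mean share rose in the other isolates, in ECs from 30.6% ± 5.96 to 51.0% ± 6.83 at Day 3. In CMs Slc2a4 stayed the main transporter, 94.5% at Day 0 and 83.1% at Day 3. The CM share of Ldha went from 14.5% ± 3.03 to 8.08% ± 2.42 by TPM but from 27.9% to 36.3% by reads, because the length the files give Ldhb went from 1299 to 1302 bases at Day 0 down to 479 to 559 at Day 3. Of Pkm transcripts in the CM files that name an isoform, the muscle form M1 took 6.23% ± 4.22 at Day 0 and 1.34% ± 1.09 at Day 3. Libraries of the days overlapped (1.66% to 11.2% and 0.404% to 2.73%), and a Day 3 library held as few as 10.6 reads of M1. Transcripts with neither the M1 nor the M2 exon took up to 8.56% of Pkm reads in a CM library at Day 0 and 4.97% at Day 3. The forms were told apart by 1 exon each, so the M1 share rests on how reads were assigned to transcripts and is uncertain. The mean in ECs went from 3.28% to 1.61%.

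**Figure D4:**
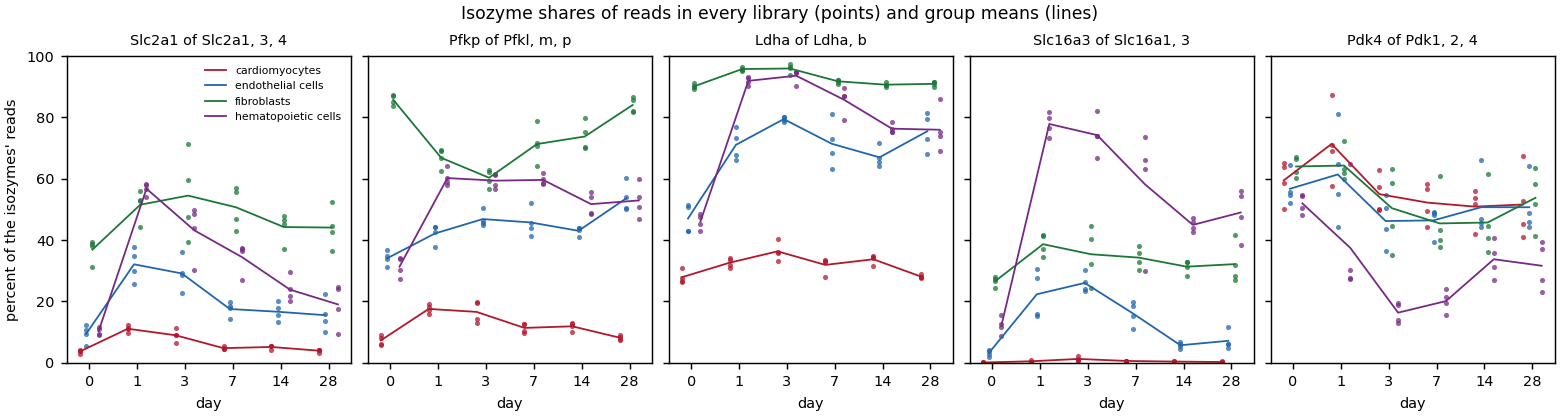
Percent of the reads of an isozyme set (vertical axis, 0 to 100) that belonged to 1 member, on each day (horizontal axis), with a point for each library and a line through the group means. Slc2a1, Ldha and Slc16a3 gain share in HCs and ECs after infarction, and Pfkp falls in FBs while it gains in the other isolates; these are shares of reads, and shares of TPM are in the text.

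The muscle isozymes in ECs and HCs moved with CM transcripts. The sum of 8 abundant CM transcripts (Myh6, Myl2, Myl3, Ckm, Tnnc1, Mb, Actn2, Tpm1) ran from 5800 to 9590 CPM in HCs at Day 0 and from 754 to 1460 at Day 3, and in ECs from 5250 to 7420 and from 2320 to 3140, and then from 821 to 1860 at Day 28. All 4 CM markers fell in HCs at Day 3 and 3 of 4 in ECs. As a percent of those 8 transcripts, Slc2a4 was at 0.529 ± 0.00999 in HCs at Day 0 and 0.512 ± 0.159 at Day 3, near 0.545 ± 0.011 in ECs and 0.549 ± 0.0389 in CMs at Day 0. Pgam2 was at 0.450 ± 0.0338 and 0.462 ± 0.0508 in HCs, Ldhb at 1.79 ± 0.078 and 1.88 ± 0.157, and Pdk4 at 1.24 ± 0.221 and 1.11 ± 0.434, so the level of these members and of CM transcripts fell by about the same factor. Pfkm (1.18 ± 0.0783 to 1.49 ± 0.471), Eno3 (1.25 ± 0.0737 to 1.5 ± 0.272) and Pdk2 (0.521 ± 0.0542 to 0.850 ± 0.204) had higher means at Day 3, by less than the Day 3 SD for Pfkm and Eno3. In ECs Slc2a4 was at 0.529 ± 0.0399 at Day 3 and 0.934 ± 0.153 at Day 28. Genes of the mitochondrial step did not keep that ratio in HCs: Pdha1 went from 3.18 ± 0.178 to 10.3 ± 2.58 percent, Pdhb from 1.47 ± 0.149 to 5.59 ± 1.59 and Mpc1 from 1.37 ± 0.124 to 6.80 ± 0.729. The part of CM transcripts in the falls of ECs and HCs was not tested.

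**Figure D5:**
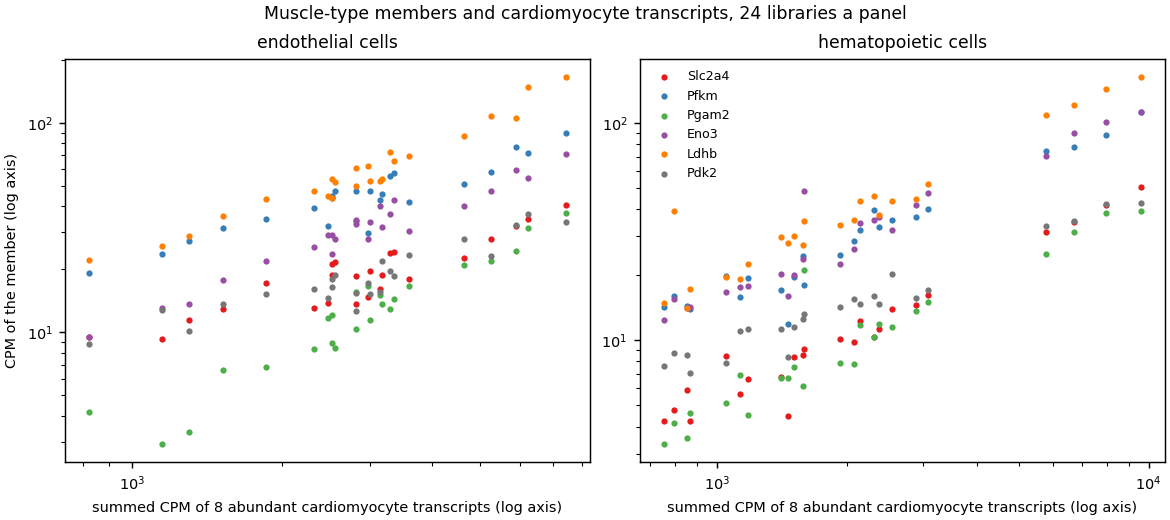
CPM of 6 muscle-type members (vertical log axis) against the summed CPM of 8 abundant CM transcripts (horizontal log axis) in the 24 libraries of ECs and of HCs (panels), 1 point for a member in a library. In both panels the members are high in the libraries with the highest CM transcript sums, 5250 to 7420 CPM at Day 0 in ECs and 5800 to 9590 in HCs.

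Later days differed between isolates. HCs kept 12 members higher and 12 lower at Day 7 (28.0% of all genes called), 8 and 12 at Day 14 (12.9% of all genes called) and 5 and 15 at Day 28 (21.8% of all genes called), where all 7 pyruvate genes were lower. Without the HC Day 28 libraries that stood apart the Day 28 split was 3 and 13. Those splits on log2(TPM + 1) were 7 and 7, 3 and 1, and 1 and 6, and over nuclear protein-coding genes 5 and 11, 3 and 11, and 1 and 13. Slc16a3 in HCs was still 2.35 ± 0.21 higher at Day 7, 1.80 ± 0.21 at Day 14 and 1.38 ± 0.21 at Day 28 (adjusted p = 5.30e-05), at 17.9, 25.1, 28.2 and 26.5 CPM then, and no Day 28 library overlapped Day 0. Against Day 3, Day 7 had 0 members higher and 14 lower (19.8% of all genes called; 0 and 0 on log2(TPM + 1), 0 and 5 over nuclear protein-coding genes), among them Pgam1 (-1.34 ± 0.14), Pgk1 (-1.21 ± 0.13), Pkm (-1.20 ± 0.12) and Hk3 (-1.20 ± 0.15).

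ECs had more members lower than higher from Day 7 on. They had 6 members higher and 13 lower at Day 7 (37.6% of all genes called), 5 and 14 at Day 14 (27.0% of all genes called) and 1 and 20 at Day 28 (33.7% of all genes called, medians -0.80 for members and 0.03 for all genes). This direction rests on the scale: on log2(TPM + 1), where the median of all genes moved by 0.39, 0.42 and 0.51, the splits were 17 and 2, 16 and 0, and 14 and 5. Over nuclear protein-coding genes they were 7 and 9, 6 and 6, and 6 and 14, and, leaving out the libraries that stood apart, 4 and 11, 2 and 5, and 0 and 15. Eno1 was the member called higher at Day 28 (1.20 ± 0.31, adjusted p = 0.00471), but with its copies added it was at 0.187 ± 0.125 and not called (adjusted p = 0.261). Pgam2 (-2.49 ± 0.34) and Ldhb (-2.05 ± 0.24) were lower, on the day with the lowest CM transcripts. Gapdh was at -2.09 ± 0.27 alone and at -0.505 ± 0.113 with its 69 copies, which held a median of 66.0% of the joint reads in ECs. Against Day 3, Day 7 had 0 higher and 9 lower (23.2% of all genes called; 0 and 11 without those libraries, 8 and 1 on log2(TPM + 1), 0 and 5 over nuclear protein-coding genes), including Pgk1 (-0.97 ± 0.12), Slc2a1 (-0.86 ± 0.16) and Pkm (-0.82 ± 0.12).

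FBs had 10 members higher and 2 lower at Day 7 (14.3% of all genes called; 0 and 0 on log2(TPM + 1), 9 and 1 over nuclear protein-coding genes), 3 and 1 at Day 14 (10.9% of all genes called; 0 and 3, and 1 and 0) and 0 at Day 28 by edgeR (3.49% of all genes called), where 4 had an unadjusted p below 0.05 and DESeq2 called 0. The Day 7 count of 12 was 5 without FB Day 0 replicate 3 or 4, 6 without FB Day 0 replicate 2 or FB Day 7 replicate 3 or 4, and 7 without FB Day 7 replicate 1; the Day 14 count of 4 was 2 without FB Day 0 replicate 3 or FB Day 14 replicate 1 or 4. Without the libraries that stood apart the splits of the 3 days were 12 and 4, 9 and 1, and 0 and 2. With all libraries, the 12.5% of members called at Day 14 was near the 10.9% of all genes. The opposite changes of the phosphofructokinase genes were still there at Day 14, with Pfkl higher by 1.26 ± 0.175 at Day 7 and 0.99 ± 0.175 at Day 14 and Pfkp lower by 0.59 ± 0.12 and 0.55 ± 0.12. Against Day 3, Day 7 had 1 higher and 15 lower (36.1% of all genes called; 2 and 16 without those libraries, 14 and 0 on log2(TPM + 1), 1 and 8 over nuclear protein-coding genes). Pfkp was the one higher (0.43 ± 0.12, adjusted p = 0.00995), and Ldha (-1.495 ± 0.16), Pgk1 (-1.46 ± 0.14) and Pkm (-1.28 ± 0.18) fell back.

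CMs had 2 members higher and 4 lower at Day 7 (13.3% of all genes called; 0 and 0 on log2(TPM + 1), 2 and 0 over nuclear protein-coding genes), 2 and 6 at Day 14 (13.8% of all genes called; 1 and 0, and 2 and 0) and 0 at Day 28 by edgeR (3.58% of all genes called), where 3 had an unadjusted p below 0.05 and DESeq2 called 1. The Day 7 count of 6 was 3 without CM Day 0 replicate 2 and 12 without CM Day 0 replicate 3, and the Day 14 count of 8 was 3 without CM Day 14 replicate 2 and 5 without replicate 3 or 4. Ldhb was lower by 0.61 ± 0.16 at Day 7 and 0.635 ± 0.16 at Day 14. Against Day 3, Day 7 had 0 higher and 4 lower (8.94% of all genes called; 0 and 4 on log2(TPM + 1), 0 and 1 over nuclear protein-coding genes). Both transporter genes that had risen fell back, Slc2a1 by 0.95 ± 0.16 and Slc2a3 by 0.99 ± 0.22, as did Pgam1 by 0.52 ± 0.13.

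Genes of neighbouring pathways were counted at Day 3, where 30.5% of all genes were called in CMs, 45.5% in ECs, 49.1% in FBs and 46.4% in HCs. Of 7 pentose phosphate genes, which make NADPH from glucose 6-phosphate, 6 were higher in HCs and none lower, with 3 and 0 in CMs, 3 and 1 in ECs and 3 and 0 in FBs. In HCs Pgd rose by 1.71 ± 0.10 and Taldo1 by 1.495, and in CMs G6pdx, the entry enzyme gene, by 2.105 ± 0.32. Of 10 glycogen genes, CMs had 1 higher and 7 lower, ECs 1 and 3, FBs 5 and 2, and HCs 3 and 3. In HCs the liver-type phosphorylase gene Pygl rose by 2.81 ± 0.19, from 11.3 to 79.1 CPM, and the muscle form Pygm fell by 2.47 ± 0.25, from 93.2 to 16.9 CPM. Pygm also fell in CMs (-0.775), ECs (-1.05) and FBs (-1.47).

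Of 10 other pyruvate enzyme genes 1 was higher and 6 lower in CMs, 2 and 3 in ECs, 5 and 2 in FBs and 2 and 7 in HCs, with Dlat, a pyruvate dehydrogenase core gene, at -1.23 in HCs and -0.69 in ECs. NADH shuttle genes, which carry reducing equivalents into mitochondria, had 0 higher and 3 lower of 8 in CMs, 0 and 7 of 8 in ECs, 5 and 1 of 8 in FBs and 1 and 5 of 7 in HCs. The malate dehydrogenase gene Mdh2 rose by 1.27 ± 0.13 in FBs, and Got1 fell in ECs (-0.97) and HCs (-1.05). Other isozymes and regulators of glycolysis had 0 higher and 3 lower of 10 in CMs, 1 and 4 of 11 in ECs, 2 and 1 of 9 in FBs and 1 and 7 of 11 in HCs. The counts of pentose phosphate genes in FBs, of glycogen genes in ECs, of other pyruvate enzyme genes in ECs and of other isozymes in CMs, ECs and FBs are near or under the share of all genes called there.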

How the data were processed

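The labels and the study's methods say that reads were trimmed with Trim Galore, aligned to mm10 with STAR 2.28 and quantified with Salmon. Each file the authors deposited holds estimated counts and TPM, for transcripts in 56 files and for genes in 40 (all CM and EC files and those of HC Day 1 and Day 7 hold transcripts). Transcript values were summed to genes with GENCODE M21. Entries with no gene there took up to 0.363% of reads in a library, and 213 genes whose lengths differed between the kinds of file were left out, none of them a member.

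After rounding to whole numbers, estimated counts entered edgeR 4.0.16 (R 4.3.3; TMM, filterByExpr, robust quasi-likelihood), with Benjamini-Hochberg adjustment over all genes and calls under 0.05. Each cell type was fitted over its 24 libraries, uninjured types over 16 and the differences of Day 3 changes over 32. The SE is the log2 value over the root of F. Hk3 and Aldoc could not be tested in CMs and ECs, nor Aldoc between uninjured types, and a second identifier of Aldoa with 252 reads was dropped. Copies of Gapdh and Eno1 were found with blastn 2.17.0 (95% identity over 50% of the length). Scripts were tested on simulated data, and alternatives used DESeq2 1.42.0 and limma 3.58.1 on log2 of the deposited TPM with pseudocounts of 1 and 0.1.

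The members and lists were chosen with earlier results of these data known. Named with values were called members with at least 10 CPM and no overlap between the days, the 4 highest and 2 lowest at Day 3 and the 2 highest and 2 lowest at Day 1, and the 3 highest of each uninjured type; other genes given values were picked after their values were seen. Replicates are called biological in the labels and technical in a figure legend, so a p-value reflects variation among pools that could in part be technical. No source ties replicate numbers to pools. The study set some FB Day 3 and HC Day 28 libraries aside as outliers without naming them, and all were used here.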

Additional observations from a re-analysis of the deposited data

Results flagged for a closer look

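Of groups of 4 libraries, 1 library lay far from the other 3 in 2 named results: Pgam1 in CMs at Day 3, where the lowest library had 24 CPM, and Slc2a4 in HCs at Day 3, where the highest had 5.87 CPM. Chance alone gives such a library in about 1 in 20 groups.

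By edgeR's interaction test, the Day 3 change of 16 members in CMs, 21 in FBs and 21 in HCs differed from the mean of the other 3. The largest 3 differences in each of these types, 9 results, were flagged. In CMs these were Eno1 (-2.98), Hk3 (2.75, on at most 2 reads in a Day 0 library) and Pkm (-2.235). In CMs a median of 78.8% of the joint reads of Eno1 and its copies went to the copies, and with the copies added its Day 3 change was 0.433 in CMs, 1.8 in ECs, 1.656 in FBs and 2.098 in HCs. In FBs they were Eno3 (2.82, 1.19 without the libraries that stood apart), Pgam2 (2.80, 0.28 without them) and Hk3 (-2.29, -3.28 without them). In HCs they were Pgam2 (-2.79), Eno3 (-2.75) and Pdk4 (-2.52). The CM difference of Hk3 was 3.74 without CM Day 0 replicate 4, and the FB difference of Hk3 lost its call without FB Day 3 replicate 1 (-1.69).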

How the results depend on the processing

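Of 505 called gene results, 96 lost their call when some library was left out. DESeq2 moved the CM Day 28 count of called members to 1, DESeq2 size factors the EC difference count to 2, and no filter on low counts FB Day 7 to 5 and FB Day 14 to 2. Replicate numbers were not taken as pairs, because no source ties them to pools. Across days of a cell type, not every same-numbered pair correlated above 0.1 (lowest -0.165 in CMs). Pools of different days hold different mice, so this cannot show whether isolates of a day share mice. Same-numbered libraries had a median correlation of 0.263 in CMs, -0.011 in ECs, -0.01 in FBs and 0.042 in HCs. Of 24 libraries, 17, 2, 3 and 11 correlated best with their own number. In CMs different numbers had a median of -0.106, a hint from the data, not the design. Across the 4 cell types at Day 0, same numbers had a median of 0.024 and different numbers of -0.009. There 8 of 16 libraries correlated best with their own number. A replicate block moved 1 count past 1.5 times, CM Day 28 to 1, and kept 494 of 505 gene calls.

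Log2(TPM + 1) gave counts of 2, 8, 0 and 1 in CMs at Day 1, 3, 7 and 14, 8 and 13 in ECs at Day 1 and 3, 1, 0 and 1 in FBs at Day 1, 7 and 28, and 17, 14, 4, 7 and 0 in HCs at Day 1, 7, 14, 28 and Day 7 against Day 3. With a pseudocount of 0.1 they were 2, 8, 2 and 1 in CMs, 10 in ECs at Day 1, 1, 0 and 0 in FBs at Day 1, 7 and 14, and 14, 3, 7 and 0 in HCs from Day 7 on. With no filter on TPM they were 2, 9, 0 and 1 in CMs, 5 and 10 in ECs, 2, 0, 2 and 1 in FBs at Day 1, 7, 14 and 28, and 17, 14, 1, 5 and 0 in HCs. Outside rRNA and mitochondrial genes they were 2, 7, 0, 1 and 2 in CMs, 7, 10, 8 and 11 in ECs at Day 1, 7, 14 and 28, 1, 0, 9 and 3 in FBs at Day 1, 7, 14 and 28, and 19, 12, 5, 7 and 0 in HCs from Day 3 on. TPM over nuclear protein-coding genes, chosen after seeing the data, gave 4, 7, 2, 2 and 1 in CMs, 12 and 5 in ECs at Day 14 and Day 7 against Day 3, 1 and 9 in FBs at the same, and 5 in HCs at Day 7 against Day 3. Leaving out the libraries that stood apart gave 9 and 7 in ECs at Day 1 and 14, 10 and 2 in FBs at Day 14 and 28, and 1 for the EC difference.

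Leaving out 1 library gave 8 to 16 for CM Day 3, 3 to 12 for CM Day 7, 3 to 8 for CM Day 14, 0 to 2 for CM Day 28, 12 to 20 for EC Day 14, 0 to 1 for the EC difference, 5 to 14 for FB Day 7, 2 to 6 for FB Day 14 and 0 to 1 for FB Day 28. Signs turned on TPM (TPM + 1, TPM + 0.1, outside rRNA and mitochondrial genes; no filter as TPM + 1) for Pfkm in CMs at Day 3 (0.104, 0.116, 0.010), Ldha in ECs (-0.067, outside rRNA) and, in FBs at Day 3, Pdk1 (-0.080, -0.227, -0.095), Pfkl (-0.302, -0.525, -0.325), Pgam2 (-0.025, -0.26, -0.035; -0.89 without the libraries that stood apart), Slc16a3 (-0.309, -0.452, -0.33), Pkm (-0.00013 and -0.0077 with TPM + 0.1 and outside rRNA), Gapdh (-0.0021, -0.046, -0.015), Eno3 (-0.32, -0.641, -0.346) and Ldha (-0.408, -0.416, -0.418). The CM share of Ldha at Day 3 turned from a fall to a gain of 8.42 points by reads. With HC files of 1 kind (Day 0, 3, 14 and 28), 62 HC gene calls held and 7 were lost. On log2(TPM + 1), 119 gene results kept their direction and call, 157 kept the direction alone and 72 reversed; over nuclear protein-coding genes the numbers were 232, 102 and 14. Very short RNAs took 36.3% to 87.3% of a library's TPM. The depth of FB Day 3 replicate 2 limits low members there.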

Other observations

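Pdk4 at Day 1 was highest in replicate 3 in all 4 isolates. It stood at 180, 136, 525 and 228 CPM in CMs, at 49.3, 88.1, 321 and 116 in ECs, at 43.4, 32.3, 53.1 and 31.7 in FBs and at 27.4, 35.5, 144 and 23.9 in HCs, replicates 1 to 4. The study's methods say that the isolates of a time came from the same animals, but no source ties the numbers to animals. Pdk4 was not called at Day 1 in any isolate.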
